A study of Mus musculus with 9 samples.

Results

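The 9 genes described here belong to the primitive endoderm and its endocytic machinery, and were followed by symbol through 9 RNA-seq libraries of mouse embryonic stem (ES) cells: Gata4, Gata6, Pdgfra, Dab2, Cubn, Amn, Fst, Thbd and Apoe. All 9 were found among 40213 gene symbols, and all 9 were among the 16562 genes with enough counts to be tested. The libraries formed 3 groups of 3. The EWS-OCT4 group was a Niwa stable line in which the RNA-binding protein EWS is fused to OCT4, and the OCT4 group was a Niwa stable line carrying unfused OCT4. Both stable lines were given 1 µg/ml doxycycline to lower their own OCT4. The control group was the ES line J1, for which the labels state no construct, and whether it also received doxycycline is not given. All 3 groups grew in ES cell medium with LIF, the cytokine that maintains self-renewal. The titles give each group 1 shared name with its libraries numbered 1 to 3. They do not say whether these were separate cultures, clones or separately made stable lines, and each group is called a line here. The p-values therefore cover the spread among these libraries alone, and that spread may be technical. Construct, host line and possibly doxycycline differ together against J1 and cannot be told apart.

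The primitive endoderm is the layer that separates from the pluripotent epiblast in the inner cell mass and gives rise to the visceral and parietal endoderm of the yolk sacs. FGF signalling drives cells towards it, the zinc-finger transcription factors GATA6 and GATA4 specify it, NANOG opposes it in the epiblast, and PDGFRA marks it and helps its cells to survive. Its descendants feed the embryo by endocytosis: cubilin (Cubn) binds many ligands but has no membrane-spanning segment of its own, amnionless (Amn) anchors it, megalin (Lrp2) works beside it, and the adaptor DAB2 ties the receptors to clathrin. Follistatin (Fst) binds and blocks activins, thrombomodulin (Thbd) is a surface cofactor of thrombin found on parietal endoderm, and apolipoprotein E (Apoe) carries lipids. ES cell cultures are known to hold some cells that express Gata6 and Pdgfra.

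The sequences around the annotated starts of Dab2 and Cubn are shown because in these 2 members both stable lines lay several-fold below J1. They were taken from the RefSeq promoter table on GRCm38.p6, which had entries for 5 of the 9 genes, and cover 250 bases before to 50 after the start, 5′ to 3′ on the gene's strand. Capitals mark GATA sites, searched on both strands as AGATAA or with T as the first letter (TGATAA), and as AGATAG or with T as the first letter (TGATAG). No match overlapped another.
Dab2, upstream start (chr15:6299539-6299838, plus strand): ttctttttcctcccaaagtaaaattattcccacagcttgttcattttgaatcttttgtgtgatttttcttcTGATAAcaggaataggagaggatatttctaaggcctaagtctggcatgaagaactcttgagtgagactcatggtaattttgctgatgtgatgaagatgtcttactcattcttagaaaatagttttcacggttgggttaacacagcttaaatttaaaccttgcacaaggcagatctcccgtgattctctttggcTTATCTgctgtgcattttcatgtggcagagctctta
Dab2, downstream start (chr15:6386498-6386797, plus strand): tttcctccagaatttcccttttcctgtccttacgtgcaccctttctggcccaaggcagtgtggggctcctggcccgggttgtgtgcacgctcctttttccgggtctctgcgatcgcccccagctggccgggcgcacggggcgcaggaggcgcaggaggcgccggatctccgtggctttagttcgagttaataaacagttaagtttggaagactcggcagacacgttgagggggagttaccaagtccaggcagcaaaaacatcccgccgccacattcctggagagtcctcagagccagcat
Cubn (chr2:13491827-13492126, minus strand): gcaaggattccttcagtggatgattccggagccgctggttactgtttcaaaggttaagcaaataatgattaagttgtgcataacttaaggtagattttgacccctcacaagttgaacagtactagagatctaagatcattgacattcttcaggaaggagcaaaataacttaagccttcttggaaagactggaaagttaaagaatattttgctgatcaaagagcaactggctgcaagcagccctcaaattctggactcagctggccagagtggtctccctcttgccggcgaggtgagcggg
The upstream Dab2 window held 2 such sites, the downstream one 0 and the Cubn window 0, while 29.8% of 32851 windows of this length held at least 1. The octamer ATGCAAAT, the motif that OCT4 is known to bind, was in none of these 3 windows and in 1.74% of all windows. Bases just after the start matched a GENCODE M21 transcript of the gene in both Dab2 windows, but on neither strand in the Cubn window. A motif match describes letters only, and counts per gene do not show which start was used.

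Library totals ran from 21149358 to 24786305 counts. Pou5f1, which encodes OCT4, averaged 26.8 ± 2.12 CPM in EWS-OCT4 cells, 165 ± 2.61 in OCT4 cells and 569 ± 61.8 in J1 cells (SD, n = 3 each). CPM is a gene's count scaled to a common library size, with TMM factors. Counts of an introduced sequence cannot be separated from those of the mouse gene. All 12 ES cell markers were detected in each group, with summed levels of 3900 to 4000 CPM in EWS-OCT4 cells, 3620 to 3700 in OCT4 cells and 5070 to 5540 in J1 cells. Pou5f1 is part of these sums, as is Zfp42, at 758 ± 27.4, 429 ± 19.2 and 1420 ± 114 CPM in that order of lines. Nanog and Fbxo15 were instead higher in both stable lines than in J1. By the test described below, 3 of the 12 were higher and 6 lower in EWS-OCT4 versus J1, and 2 and 8 in OCT4 versus J1. In EWS-OCT4 versus OCT4, 4 were higher and 4 lower. Of 15 visceral endoderm markers, 9 had enough counts to be tested, among them Trf with 1354 and Mttp with 1074 counts over all 9 libraries. Afp had 5, Ttr 7 and Cer1 0 counts, and these 5 genes were picked after their values were seen. In bulk RNA, fewer cells of a type and less RNA per cell cannot be told apart.

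The 9 genes did not share 1 pattern across the lines. Gata4, Gata6 and Pdgfra were lowest in the EWS-OCT4 line, and Apoe was highest there. Cubn and Dab2 lay several-fold below J1 in both stable lines. Cubn, unlike Dab2, was also called lower in the EWS-OCT4 line than in the OCT4 line. In EWS-OCT4 versus OCT4, 2 members were higher (background 31.9% of tested genes) and 4 lower (34.6%). In EWS-OCT4 versus J1, 2 were higher (30.3%) and 5 lower (31.6%), and in OCT4 versus J1, 1 was higher (34.3%) and 3 lower (32.7%). Some of these counts lie above their background share and some below it, and none is read as a property of the list. The same shares are the background for the counts of every other list. A gene was called where its p from the quasi-likelihood test of edgeR, adjusted by Benjamini-Hochberg over all 16562 genes, was under 0.05. The comparisons with J1 share its 3 libraries.

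**Figure D1:**
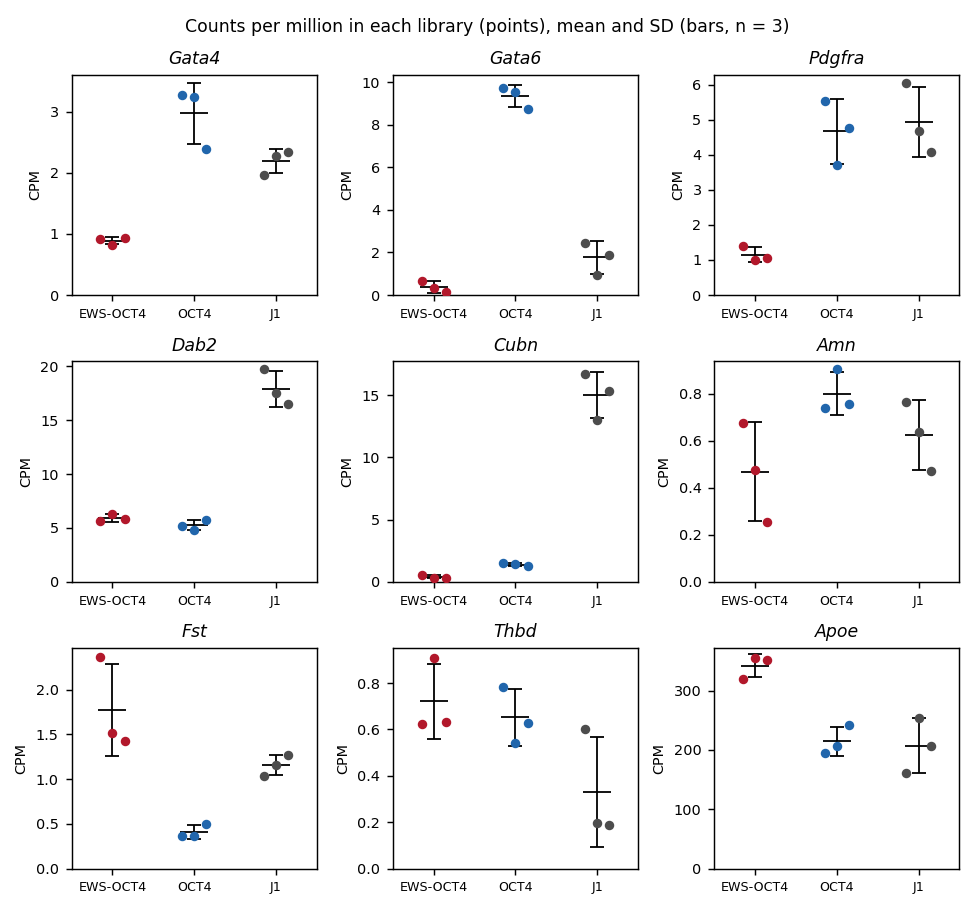
CPM of each of the 9 genes (vertical axes from 0) in the EWS-OCT4, OCT4 and J1 libraries; points are libraries and black bars the mean and SD (n = 3). Gata6 stands between 8.74 and 9.74 CPM in the OCT4 libraries and at 2.45 CPM or less in all others, and the J1 libraries stand above all others for Cubn, at up to 16.7 CPM.

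Gata6, which is needed to form primitive endoderm, was lowest in the fusion line and highest in the OCT4 line. It had 0.673, 0.346 and 0.126 CPM in the EWS-OCT4 libraries, 9.74, 9.53 and 8.74 in the OCT4 libraries and 2.45, 0.958 and 1.88 in the J1 libraries. No pair of groups overlapped, and the J1 libraries varied more among themselves than the OCT4 libraries. The EWS-OCT4 line was 24.8-fold lower than the OCT4 line (log2 fold change -4.63, SE 0.349, edgeR adjusted p = 1.54e-08) and 4.68-fold lower than J1 (-2.23, SE 0.420, adjusted p = 0.000289). The OCT4 line was 5.30-fold higher than J1 (2.40, SE 0.270, adjusted p = 1.17e-06). The EWS-OCT4 values rest on 14, 8 and 3 counts. Without EWS-OCT4 replicate 1, the highest of them, the log2 fold changes became -5.26 against OCT4 and -2.86 against J1.

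Gata4, which acts with Gata6 and remains on in later endoderm, was also lowest in the fusion line. It had 0.914, 0.822 and 0.927 CPM in the EWS-OCT4 libraries, 3.28, 3.25 and 2.39 in the OCT4 libraries and 1.97, 2.27 and 2.35 in the J1 libraries. The EWS-OCT4 libraries lay below all others. The line was 3.33-fold lower than the OCT4 line (log2 fold change -1.74, SE 0.226, edgeR adjusted p = 2.78e-06) and 2.46-fold lower than J1 (-1.30, SE 0.232, adjusted p = 0.000106). OCT4 and J1 libraries did not overlap, yet their difference did not pass (0.44, 95% interval 0.02 to 0.85, adjusted p = 0.0619), and among 17 alternatives it passed in 1, without OCT4 replicate 3 (0.57, adjusted p = 0.0263). Per kilobase of annotated exon, the level of Gata6 was 0.0587 CPM in EWS-OCT4 cells, 1.44 in OCT4 cells and 0.270 in J1 cells, and that of Gata4 0.227, 0.763 and 0.564 in the same order of lines. Gata6 thus exceeded Gata4 per length in the OCT4 line, and Gata4 exceeded Gata6 in the other lines.

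Pdgfra, a receptor tyrosine kinase for PDGF ligands, was lowest in the fusion line. It had 1.39, 0.996 and 1.05 CPM in the EWS-OCT4 libraries, 5.54, 3.70 and 4.75 in the OCT4 libraries and 6.03, 4.67 and 4.09 in the J1 libraries. The EWS-OCT4 libraries lay below the rest, and OCT4 and J1 libraries overlapped. The fusion line was 4.07-fold lower than the OCT4 line (log2 fold change -2.03, SE 0.225, edgeR adjusted p = 4.1e-07) and 4.32-fold lower than J1 (-2.11, SE 0.223, adjusted p = 3.02e-07). Between the OCT4 line and J1 the log2 difference was -0.08 (95% interval -0.48 to 0.31, edgeR adjusted p = 0.706).

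Of the genes for its ligands, Pdgfa and Pdgfc were highest in the fusion line, and Pdgfb was called in no comparison. Pdgfa averaged 83.2 ± 1.66 CPM in EWS-OCT4 cells, 46.4 ± 2.79 in OCT4 cells and 14.7 ± 2.45 in J1 cells (SD, n = 3 each). Pdgfc averaged 23.4 ± 1.18 CPM in EWS-OCT4 cells, 1.69 ± 0.372 in OCT4 cells and 4.08 ± 0.202 in J1 cells. Both rose in the EWS-OCT4 line, Pdgfa by 0.84 (log2, SE 0.0879) and Pdgfc by 3.79 (SE 0.137) against OCT4. Against J1, Pdgfa was 5.66-fold and Pdgfc 5.72-fold higher. Pdgfb gave -0.39 against OCT4 (95% interval -0.81 to 0.02) and -0.06 against J1 (-0.48 to 0.36). The related receptor gene Pdgfrb fell against both, with log2 fold changes of -2.12 (SE 0.103) against OCT4 and -1.10 (SE 0.107) against J1. Fgfr2, a receptor through which FGF4 can act on primitive endoderm, averaged 12.9 ± 0.467 CPM in EWS-OCT4 cells, 47.4 ± 0.207 in OCT4 cells and 7.68 ± 0.817 in J1 cells. Of the 12 PDGF and FGF ligand and receptor genes, 10 were tested. In EWS-OCT4 versus OCT4, 3 were higher (background 31.9% of tested genes) and 4 lower (34.6%). In EWS-OCT4 versus J1, 4 were higher (30.3%) and 4 lower (31.6%), and in OCT4 versus J1, 6 (34.3%) and 2 (32.7%).

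Other transcription factors of the lineage did not all follow the GATA genes. Of 9 listed, 7 were tested, all at low levels. In EWS-OCT4 versus OCT4, 1 was higher and 3 lower, with a median log2 fold change of -1.10 beside -0.04 over all tested genes. Foxa1 (-2.02, SE 0.315) and Hnf4a (-1.91, SE 0.236) were among those lower, and the 1 higher was Sox7 (3.77, SE 0.456). These factors of under 5 CPM are named after their values were seen. Sox7 had 2.79, 2.99 and 2.36 CPM in the EWS-OCT4 libraries, 0.277, 0.271 and 0.042 in the OCT4 libraries and 0.803, 0.798 and 0.188 in the J1 libraries. The fusion libraries were thus highest for Sox7, a SOX factor that marks differentiating extraembryonic endoderm, and lowest for Gata6.

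Against J1, 1 of these 7 factors was higher in the EWS-OCT4 line (Sox7) and 4 were lower, at a median of -0.87 beside 0.00 over all tested genes. Sox17, Hnf4a and Foxq1 were among the 4, and the Foxq1 call (log2 fold change -1.01, edgeR adjusted p = 0.0425) was lost with DESeq2 (adjusted p = 0.0637) and without EWS-OCT4 replicate 1 (0.0546) or 2 (0.205), OCT4 replicate 1 (0.0537) or J1 replicate 2 (0.182) or 3 (0.0710). Sox17, which maintains the endoderm programme, had 4 counts in the EWS-OCT4 libraries, 9 in the OCT4 libraries and 48 in the J1 libraries. In OCT4 versus J1, 3 were higher (Foxa1, Hhex and Hnf4a) and 2 lower (Sox17 and Sox7). The Sox7 call of that comparison (-1.64, adjusted p = 0.0148 in edgeR) was lost without OCT4 replicate 3 (0.0754) or J1 replicate 2 (0.0538).

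The other tested GATA genes were highest in the OCT4 line, as Gata6 was. Of 6 genes for GATA factors and their FOG cofactors, 4 were tested, and all 4 were lower in the EWS-OCT4 line than in the OCT4 line and higher in the OCT4 line than in J1. Gata3, a trophoblast factor, averaged 2.73 ± 0.494 CPM in EWS-OCT4 cells, 19.8 ± 1.95 in OCT4 cells and 0.183 ± 0.0996 in J1 cells (SD, n = 3 each). Gata2, also a trophoblast factor, averaged 4.53 ± 0.238, 17.3 ± 0.485 and 0.837 ± 0.209 CPM in that order of lines. Unlike Gata6, both rose in the EWS-OCT4 line against J1, by 3.86 (log2, SE 0.307) and 2.44 (SE 0.179). Gata1 and Zfpm1, whose product FOG1 binds GATA factors, were lower there (-1.61, SE 0.234, and -1.60, SE 0.108).

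Trophoblast markers summed highest in the OCT4 line, where Gata6 was highest too, but most did not follow Gata6 in the fusion line against J1. Their 12 genes, Gata3 among them, summed to 174 to 184 CPM in the EWS-OCT4 libraries, 448 to 486 in the OCT4 libraries and 121 to 148 in the J1 libraries. Tfap2c was the largest part of each sum, at 104 ± 2.84, 215 ± 3.25 and 91.0 ± 6.46 CPM in that order of lines. In OCT4 versus J1, 9 of the 12 were higher (background 34.3% of tested genes) and 0 lower (32.7%). In EWS-OCT4 versus OCT4, 2 were higher (31.9%), among them Krt7, and 6 lower (34.6%). In EWS-OCT4 versus J1, where Gata6 was lower, 7 were higher (30.3%) and 1 lower (31.6%). Their median log2 fold change was 0.76, beside 0.00 over all tested genes. The 1 lower was Esx1, which had the order of lines of Gata6. It averaged 3.44 ± 0.440 CPM in EWS-OCT4 cells, 79.9 ± 8.32 in OCT4 cells and 17.5 ± 3.82 in J1 cells. With a library left out, the calls of Elf5 and Tfap2c in EWS-OCT4 versus J1 were lost in some fits. So were those of Gcm1 in OCT4 versus J1 and Tead4 in EWS-OCT4 versus OCT4. The 10 mesendoderm markers also summed highest in the OCT4 line. Their sums were 10.1 to 12.5 CPM in the EWS-OCT4 libraries, 23 to 26.9 in the OCT4 libraries and 9.93 to 10.5 in the J1 libraries. That list shares Eomes with the trophoblast list, at 4.57 ± 0.858 CPM in EWS-OCT4 cells, 12.0 ± 0.768 in OCT4 cells and 3.91 ± 0.139 in J1 cells, so the sums are not separate observations. Of its 7 tested genes, 4 were higher and 2 lower in OCT4 versus J1. Gata6 is known outside the endoderm too, and the part of such cells in its counts was not tested.

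**Figure D2:**
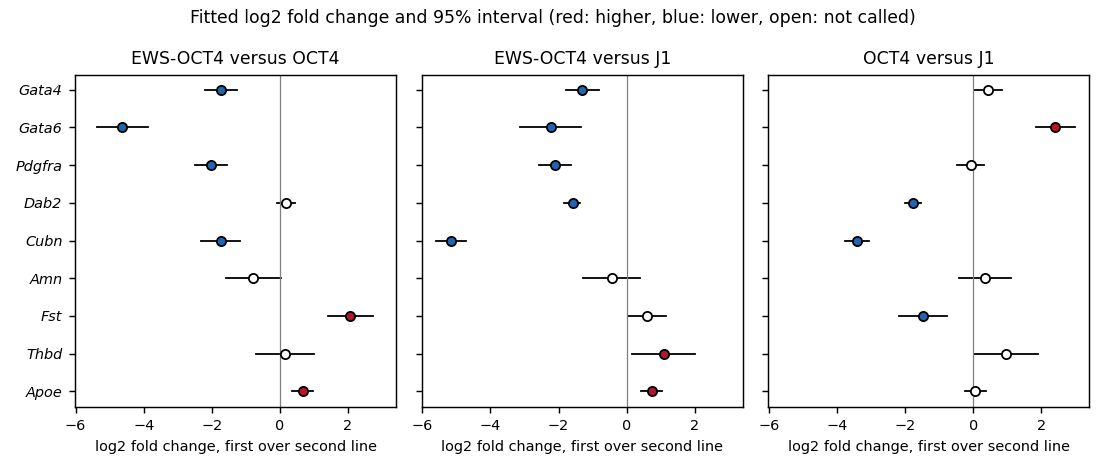
Fitted log2 fold change of each gene (points) with its 95% interval (lines) for the fusion line against OCT4, the fusion line against J1, and OCT4 against J1; filled points passed the test (red higher, blue lower). The longest distance from 0 is that of Cubn against J1 in the fusion line, at -5.16.

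The receptor gene Cubn had the fitted fold change farthest from 0 among the 9 genes, and it was highest in J1. Cubn had 0.577, 0.346 and 0.337 CPM in the EWS-OCT4 libraries, 1.52, 1.40 and 1.26 in the OCT4 libraries and 16.7, 13 and 15.3 in the J1 libraries. No groups overlapped. Against J1 it was 35.7-fold lower in the EWS-OCT4 line (log2 fold change -5.16, SE 0.204, edgeR adjusted p = 1.37e-12) and 10.7-fold lower in the OCT4 line (-3.42, SE 0.168, adjusted p = 7.72e-12). The EWS-OCT4 line was also 3.33-fold lower than the OCT4 line (-1.73, SE 0.274, adjusted p = 2.53e-05).

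Its anchor gene Amn passed in no comparison. Amn had 0.673, 0.476 and 0.253 CPM in the EWS-OCT4 libraries, 0.739, 0.904 and 0.756 in the OCT4 libraries and 0.763, 0.638 and 0.470 in the J1 libraries. The EWS-OCT4 and J1 libraries overlapped, as did OCT4 and J1. The log2 fold change was -0.79 against OCT4 (95% interval -1.59 to 0.02, edgeR adjusted p = 0.0775), -0.44 against J1 (-1.27 to 0.38, adjusted p = 0.338) and 0.34 for OCT4 versus J1 (-0.41 to 1.10, adjusted p = 0.411). At 6 to 20 counts a library each of these intervals includes a difference of more than 2-fold. The difference from OCT4 passed without EWS-OCT4 replicate 1 (-1.10, edgeR adjusted p = 0.0390).

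Megalin, the partner of cubilin, had another order of lines. Lrp2 had 17.0, 19.5 and 17.8 CPM in the EWS-OCT4 libraries, 99.1, 96.9 and 90.0 in the OCT4 libraries and 78.7, 65.4 and 73.6 in the J1 libraries. It was 5.26-fold lower in the EWS-OCT4 line than in the OCT4 line (log2 fold change -2.39, SE 0.0849) and 4-fold lower than in J1 (-2.00, SE 0.0846), while the OCT4 line was 1.31-fold higher than J1 (0.39, SE 0.0770). Cubn was thus lower than J1 in both stable lines, and Lrp2 lower in the fusion line and higher in the OCT4 line. Per kilobase of exon, Lrp2 stood at 1.08, Cubn at 0.0281 and Amn at 0.253 CPM in the EWS-OCT4 line. The same 3 genes stood at 5.71, 0.0931 and 0.434 in the OCT4 line and at 4.35, 1.00 and 0.339 in J1. Per length, Cubn exceeded Amn in J1 and lay below it in both stable lines.

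Dab2, the adaptor, was highest in J1, as Cubn was. It had 5.67, 6.32 and 5.81 CPM in the EWS-OCT4 libraries, 5.22, 4.79 and 5.71 in the OCT4 libraries and 19.7, 17.5 and 16.5 in the J1 libraries. The stable lines overlapped and lay below J1. Against J1 it was 3.02-fold lower in the EWS-OCT4 line (log2 fold change -1.59, SE 0.113, edgeR adjusted p = 2.06e-09) and 3.42-fold lower in the OCT4 line (-1.77, SE 0.115, adjusted p = 3.01e-10). EWS-OCT4 versus OCT4 gave 0.18 (95% interval -0.09 to 0.44, edgeR adjusted p = 0.219). The windows printed above belong to these 2 genes, with GATA sites as searched in the upstream Dab2 window and in neither of the others.

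Related receptors and adaptors went both ways. All 13 other endocytic receptors and chaperones were tested. In EWS-OCT4 versus OCT4, 3 were higher (background 31.9% of tested genes) and 5 lower (34.6%). In EWS-OCT4 versus J1, 3 were higher (30.3%) and 7 lower (31.6%), and in OCT4 versus J1, 5 (34.3%) and 4 (32.7%). Lrpap1, a chaperone that keeps megalin from binding ligands too early, averaged 144 ± 8.19 CPM in EWS-OCT4 cells, 104 ± 11.0 in OCT4 cells and 41.9 ± 1.32 in J1 cells (SD, n = 3 each). It was therefore highest where Lrp2 was lowest. Scarb1, a lipoprotein receptor, rose in the OCT4 line against J1 (1.09, SE 0.0657), and Tfrc, the transferrin receptor, fell there (-0.54, SE 0.0804). Of 15 clathrin adaptor and coat genes, 3 were higher and 6 lower in EWS-OCT4 versus OCT4, 6 and 6 in EWS-OCT4 versus J1, and 5 and 4 in OCT4 versus J1, with medians between -0.15 and 0.03. Dab1, the neuronal relative of Dab2, averaged 8.86 ± 0.451 CPM in EWS-OCT4 cells, 2.74 ± 0.440 in OCT4 cells and 15.7 ± 0.694 in J1 cells, so that it too was highest in J1.

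**Figure D3:**
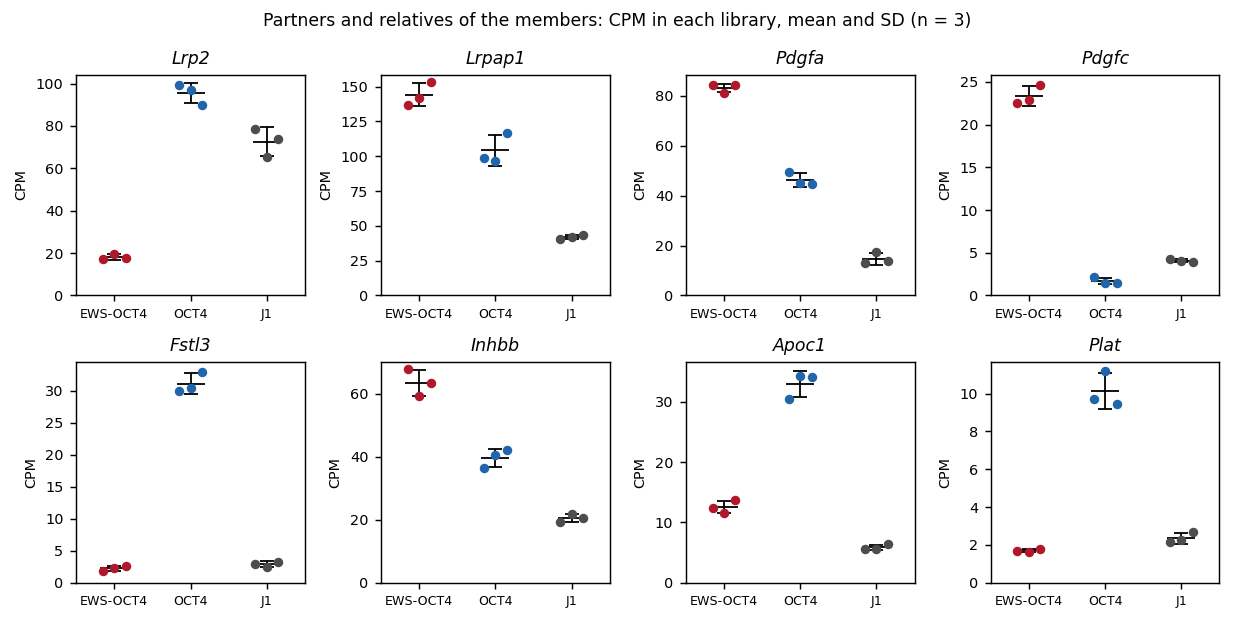
CPM of partners and relatives of the 9 genes (vertical axes from 0) in the EWS-OCT4, OCT4 and J1 libraries; points are libraries and black bars the mean and SD (n = 3). Lrp2 is at 17.0 to 19.5 CPM in the EWS-OCT4 libraries and above 65 CPM in all others, while Lrpap1, Pdgfa, Pdgfc and Inhbb are highest in the EWS-OCT4 libraries.

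Fst, the activin antagonist, was lowest in the OCT4 line. It had 2.36, 1.52 and 1.43 CPM in the EWS-OCT4 libraries, 0.369, 0.361 and 0.504 in the OCT4 libraries and 1.04, 1.16 and 1.27 in the J1 libraries. No groups overlapped. The EWS-OCT4 line was 4.21-fold higher than the OCT4 line (log2 fold change 2.07, SE 0.317, edgeR adjusted p = 1.72e-05), and the OCT4 line was 2.77-fold lower than J1 (-1.47, SE 0.331, adjusted p = 0.00078). EWS-OCT4 versus J1 did not pass (0.60, 95% interval 0.04 to 1.17, edgeR adjusted p = 0.0594), except without EWS-OCT4 replicate 3 (0.74, adjusted p = 0.0480).

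Fstl3, which encodes a second secreted activin binder of the same family, was highest in the OCT4 line. It averaged 2.26 ± 0.353 CPM in EWS-OCT4 cells, 31.1 ± 1.61 in OCT4 cells and 2.91 ± 0.437 in J1 cells (SD, n = 3 each). It fell in EWS-OCT4 versus OCT4 (log2 fold change -3.77, SE 0.129) and rose in OCT4 versus J1 (3.42, SE 0.124). Inhbb, which encodes the activin B subunit, averaged 63.5 ± 4.13 CPM in EWS-OCT4 cells, 39.6 ± 2.87 in OCT4 cells and 20.5 ± 1.35 in J1 cells, whereas Inhba had 6 counts over the 9 libraries. Of the 15 activin and follistatin genes, 12 were tested. In EWS-OCT4 versus OCT4, 2 were higher (background 31.9% of tested genes) and 8 lower (34.6%). In EWS-OCT4 versus J1, 5 were higher (30.3%) and 3 lower (31.6%), and in OCT4 versus J1, 8 (34.3%) and 0 (32.7%).

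Thbd was low in every line, at 4 to 21 counts a library. It had 0.625, 0.909 and 0.632 CPM in the EWS-OCT4 libraries, 0.785, 0.542 and 0.630 in the OCT4 libraries and 0.603, 0.199 and 0.188 in the J1 libraries. The EWS-OCT4 libraries lay above J1 by a narrow margin, since 1 J1 library was near the stable lines. EWS-OCT4 versus J1 passed narrowly (log2 fold change 1.10, SE 0.439, edgeR adjusted p = 0.0381). The call was lost in 7 of 17 alternatives, among them without EWS-OCT4 replicate 1 (adjusted p = 0.0505), 2 (0.142) or 3 (0.0534) and without J1 replicate 2 (0.147) or 3 (0.141), while without J1 replicate 1 the change was 1.87. OCT4 versus J1 gave 0.95 (95% interval 0.01 to 1.89, edgeR adjusted p = 0.0697), and 1.71 without J1 replicate 1 (adjusted p = 0.00621). EWS-OCT4 versus OCT4 gave 0.15 (-0.69 to 0.99, edgeR adjusted p = 0.754).

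Other genes of thrombomodulin's system differed between the lines. Tfpi, an inhibitor of the tissue factor pathway, averaged 133 ± 2.95 CPM in EWS-OCT4 cells, 82.0 ± 5.72 in OCT4 cells and 27.8 ± 2.64 in J1 cells (SD, n = 3 each). Plau, the urokinase gene, averaged 14.3 ± 1.04 CPM in EWS-OCT4 cells, 1.39 ± 0.162 in OCT4 cells and 2.08 ± 0.111 in J1 cells. Plat, the tissue plasminogen activator gene and a parietal endoderm marker, instead averaged 1.71 ± 0.0872 CPM in EWS-OCT4 cells, 10.1 ± 0.939 in OCT4 cells and 2.36 ± 0.285 in J1 cells. Of 13 genes of this system, 10 were tested. In EWS-OCT4 versus OCT4, 5 were higher (background 31.9% of tested genes) and 4 lower (34.6%). In EWS-OCT4 versus J1, 6 were higher (30.3%) and 3 lower (31.6%), and in OCT4 versus J1, 7 (34.3%) and 2 (32.7%). Thbd is also an endothelial gene, and the 10 endothelial markers summed to 148 to 156 CPM in the EWS-OCT4 libraries, 145 to 148 in the OCT4 libraries and 163 to 170 in J1, with Emcn at 0 counts throughout. Most of that sum was Pecam1, which ES cells express, at 117 ± 2.39, 75.7 ± 1.72 and 127 ± 2.94 CPM in the same order of lines. Of the 9 tested, 2 were higher and 3 lower in EWS-OCT4 versus OCT4, 1 and 3 in EWS-OCT4 versus J1, and 4 and 3 in OCT4 versus J1. Cdh5 was the 1 higher in EWS-OCT4 versus J1 (log2 fold change 1.13, SE 0.329), as Thbd was. Flt1 was among the 3 lower there (-1.13, SE 0.178).

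Apoe was the most abundant of the 9 genes in every line, per library and per length. It had 320, 354 and 352 CPM in the EWS-OCT4 libraries, 195, 206 and 242 in the OCT4 libraries and 161, 254 and 206 in the J1 libraries. The EWS-OCT4 libraries lay above all others, and OCT4 and J1 overlapped. The EWS-OCT4 line was 1.59-fold higher than the OCT4 line (log2 fold change 0.67, SE 0.140, edgeR adjusted p = 0.00128) and 1.65-fold higher than J1 (0.73, SE 0.140, adjusted p = 0.000865). OCT4 versus J1 gave 0.05 (95% interval -0.26 to 0.36, edgeR adjusted p = 0.757). Per kilobase of exon its level was 160 CPM in EWS-OCT4 cells, 100 in OCT4 cells and 96.8 in J1 cells.

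Other apolipoprotein genes ran in several orders of lines. Apoc1, a close neighbour of Apoe on the chromosome, averaged 12.6 ± 1.05 CPM in EWS-OCT4 cells, 32.9 ± 2.21 in OCT4 cells and 5.87 ± 0.456 in J1 cells (SD, n = 3 each). Apod averaged 18.8 ± 1.09 CPM in EWS-OCT4 cells, 5.67 ± 0.749 in OCT4 cells and 8.75 ± 0.0302 in J1 cells. Clu, which encodes the lipid-binding protein clusterin, was highest in J1, with log2 fold changes of -1.08 (SE 0.109) in EWS-OCT4 versus OCT4, -2.22 (SE 0.105) in EWS-OCT4 versus J1 and -1.14 (SE 0.0977) in OCT4 versus J1. Of 17 apolipoprotein and lipid efflux genes, 14 were tested. In EWS-OCT4 versus OCT4, 5 were higher (background 31.9% of tested genes) and 8 lower (34.6%). In EWS-OCT4 versus J1, 5 were higher (30.3%) and 5 lower (31.6%), and in OCT4 versus J1, 5 (34.3%) and 4 (32.7%).

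**Figure D4:**
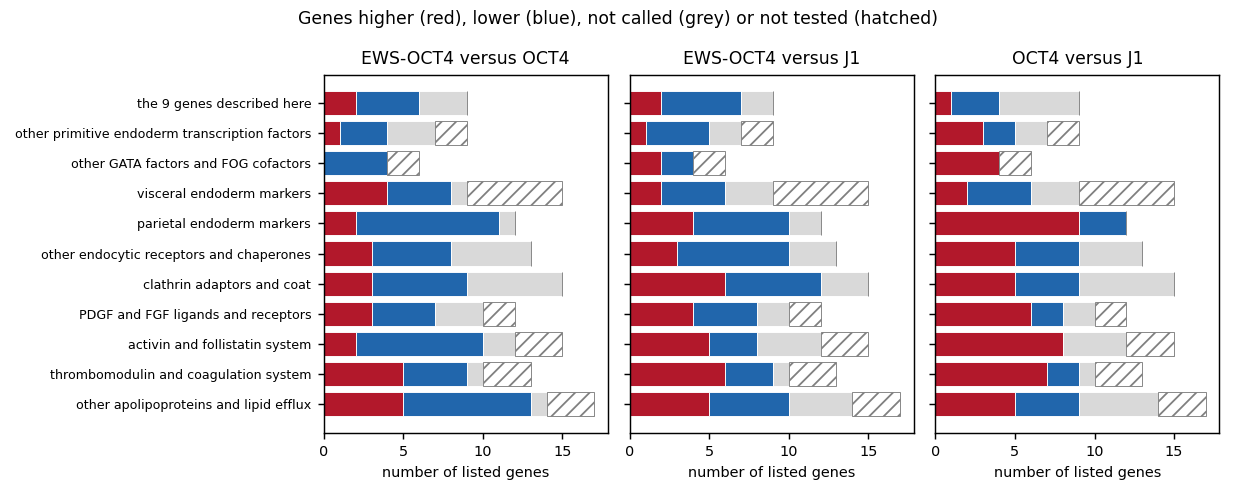
Number of listed genes (horizontal axis) that were higher (red), lower (blue), not called (grey) or not tested (hatched) in each of the 3 comparisons, for the 9 genes and 10 related lists. Of the parietal endoderm markers, 9 were higher and 3 lower in OCT4 versus J1, and 2 were higher and 9 lower in EWS-OCT4 versus OCT4.

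Markers of the layers that primitive endoderm forms were set beside the 9 genes, some of which the same cells express. All 12 parietal endoderm markers were tested. In OCT4 versus J1, 9 were higher (background 34.3% of tested genes) and 3 lower (32.7%). The median log2 fold change was 1.60, beside 0.01 over all tested genes. In EWS-OCT4 versus OCT4, 2 were higher (31.9%) and 9 lower (34.6%), at a median of -1.21 beside -0.04. In EWS-OCT4 versus J1, 4 were higher (30.3%) and 6 lower (31.6%), at a median of -0.18 beside 0.00. These markers summed to 1650 to 1690 CPM in the EWS-OCT4 libraries, 2100 to 2130 in the OCT4 libraries and 1240 to 1330 in J1. Lamc1 was the largest part of each sum, at 802 ± 21.6, 651 ± 23.9 and 546 ± 39.4 CPM in that order of lines. Unlike Gata6, the sum was thus higher in the fusion line than in J1. The part of parietal endoderm cells in these counts was not tested. Col4a1, a basement membrane collagen gene, averaged 25.6 ± 1.46 CPM in EWS-OCT4 cells, 313 ± 19.3 in OCT4 cells and 72.5 ± 0.174 in J1 cells (SD, n = 3 each), an order of lines shared with Gata6. Lama1, a laminin chain gene, had the reverse order, with 294 ± 4.50 CPM in EWS-OCT4 cells, 75.7 ± 4.20 in OCT4 cells and 129 ± 2.33 in J1 cells. Of 15 visceral endoderm markers, 9 were tested, with 4 higher and 4 lower in EWS-OCT4 versus OCT4, 2 and 4 in EWS-OCT4 versus J1 and 2 and 4 in OCT4 versus J1. Their summed level was 21.3 to 22.2 CPM in the EWS-OCT4 libraries, 16.1 to 18.2 in the OCT4 libraries and 24.6 to 27.6 in J1.

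Fibroblast markers were also set beside Pdgfra, since mesenchymal cells express that receptor. Their 10 genes summed to 24.3 to 27.7 CPM in the EWS-OCT4 libraries, 35.0 to 41.3 in the OCT4 libraries and 69.2 to 88.4 in J1, mostly from Thy1 and Col1a1. Dcn had 1 count, Lum 2 and Prrx1 10 over all 9 libraries. That sum was lower in the OCT4 line than in J1, where Pdgfra gave the log2 difference of -0.08 above, and lowest in the fusion line, as Pdgfra was. Of the 4 tested, 1 was higher (background 34.3% of tested genes) and 2 lower (32.7%) in OCT4 versus J1. In EWS-OCT4 versus J1, 1 was higher (30.3%) and 3 lower (31.6%), and in EWS-OCT4 versus OCT4, 0 (31.9%) and 3 (34.6%). Col1a2, with 8 counts in the fusion libraries, followed Pdgfra, at -3.70 against OCT4, -3.59 against J1 and 0.11, not called, for OCT4 versus J1. Twist1 instead was higher in both stable lines than in J1 (1.31 and 1.11). Its call for the OCT4 line was lost without OCT4 replicate 2 or J1 replicate 3. The part of mesenchymal cells in Pdgfra was not tested. Nanog, the epiblast factor that opposes Gata6, averaged 481 ± 5.26 CPM in EWS-OCT4 cells, 509 ± 18.5 in OCT4 cells and 261 ± 13.8 in J1 cells. The stable lines did not pass for Nanog (log2 fold change -0.08, SE 0.0653, edgeR adjusted p = 0.277), though their libraries did not overlap. Their Gata6 levels lay 24.8-fold apart, and a link between these genes was not tested.

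For each member the gene with the most similar course over the 9 libraries was sought among at most 10870 genes of at least 5 CPM in 3 libraries (predicted genes left out), by the root mean square difference of centred log2 CPM. The smallest difference was that of Svbp from Apoe, at 0.0749 on the log2 scale, followed by Grb7 from Dab2 at 0.114 and Optn from Gata4 at 0.133. Pttg1 was closest to Pdgfra (0.190), Ddx3y to Fst (0.221), Erfe to Amn (0.236) and Ctbs to Thbd (0.274). Abcc8 was closest to Cubn (0.393), at 0.226, 1.10 and 12.9 CPM in the EWS-OCT4, OCT4 and J1 lines. Gprin3 was closest to Gata6 (0.582), at 0.266, 7.23 and 0.805 CPM in the same lines. No member was the closest gene to another, but only 4 of the 9 met the limit of 5 CPM.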

How the data were processed

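RNA-seq of total RNA was deposited for 9 libraries. The authors deposited raw counts, whole numbers for each gene symbol in a table for every library. Libraries were made with the CORALL RNA-seq V2 kit, per the labels' protocols. GRCm39, GATK, Salmon, STAR and fastp appear in the submitters' processing notes, with no role or version. Not given in the sources used here: strand use, annotation and the handling of molecular identifiers. Some genes have an exon overlapping one of the 9 members in GENCODE M21, and those with deposited counts had at most 3. The overlapping genes of Gata6, Dab2 and Fst, and some of Pdgfra, had no deposited counts. Reads from them could not be checked.

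Genes were kept by filterByExpr (minimum count 10, minimum total 15). Libraries were scaled by TMM factors from 0.958 to 1.033. A single model of the 3 groups was fitted to all 9 libraries with edgeR 4.0.16 (R 4.3.3; robust glmQLFit, then glmQLFTest), with SE as the log2 fold change over the square root of F, and 95% intervals from that SE. The fit was tested on simulated data. Exon lengths came from GENCODE M21, on another build. Replicates differed by more than sampling noise (chi-square per degree of freedom 3.36 to 32.0).

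Members and lists were chosen with earlier results of these data known. Besides the 9 genes, the text names up to 2 list genes per direction and comparison with the largest change at 5 CPM or more, the closest gene to each member, and Pou5f1, Nanog and Lrp2. A gene so named is given in any comparison. Inhba, Pdgfb, Eomes, Tfap2c, Elf5, Gcm1, Col1a2, Twist1, Cdh5, Flt1, Trf, Mttp and markers at or near 0 were named after their values were seen. Alternatives were RLE and upper-quartile scaling, no filter, 5 CPM in 3 libraries, DESeq2 1.42.0, limma-voom (limma 3.58.1), the 6 libraries compared, a replicate block, no mitochondrial genes or Gm26917, and each library left out.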

Additional observations from a re-analysis of the deposited data

How the results depend on the processing

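Of 471 recomputed member fold changes, 454 kept direction and side of the threshold. For other named or called list genes, 5442 of 5639 did, and 197 lost the call. The stricter filter of 5 CPM in 3 libraries kept 4 of the 9 genes, so members higher and lower became 1 and 2 in EWS-OCT4 versus OCT4, 1 and 3 in EWS-OCT4 versus J1, and 1 and 2 in OCT4 versus J1. Through Thbd, members higher in EWS-OCT4 versus J1 were 1 with DESeq2 and 1 with only the 6 libraries compared, and 1 to 2 with a library left out. Members higher in OCT4 versus J1 were 2 with limma-voom, and 1 to 2 with a library left out. Signs turned only in uncalled differences near 0. With a library left out, OCT4 versus J1 ran from -0.22 to 0.08 for Pdgfra (above 0 without OCT4 replicate 2 or J1 replicate 1) and from -0.11 to 0.22 for Apoe (below 0 without OCT4 replicate 3 or J1 replicate 1), and EWS-OCT4 versus OCT4 from -0.03 to 0.30 for Thbd (below 0 without EWS-OCT4 replicate 2). Beyond the smaller set of genes under the filter, the cause was not tested. Same-numbered libraries were not paired by their deviations from group means (correlations 0.00 to 0.07 over 9 pairs, and not every library closest to its own number), and the replicate block left members higher and lower at 2 and 4 for the fusion line against OCT4, 2 and 5 against J1, and 1 and 3 for OCT4 against J1. Amn and Thbd had 4 to 21 counts a library, and the effect of depth on them was not tested.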
